A study of Saccharomyces cerevisiae with 4 samples.

Results

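The genes described here lie on the left arm of chromosome X of budding yeast (Saccharomyces cerevisiae) and carry identifiers that begin with YJL. They are 203 of the 7126 features of the count table. The rule took every such identifier except 33 named genes of the same arm. The members were chosen by measured values, the higher counts of chromosome X genes in the mutant of these same libraries, so every difference between mutant and wild type given for them is a description, with no test and no support drawn from it. They run from 466 to 434651 of chromosome X (sacCer3), and the annotated centromere follows at 436307 to 436425 of a chromosome of 745751 bases, so the positions fit the label of a left arm.

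Polyadenylated RNA was sequenced from a wild-type ULP1 strain and from a strain with the ulp1-I615N allele, 2 libraries each. ULP1 encodes the protease that matures the small modifier SUMO and removes it from its target proteins. Both strains were MATa and carried the auxotrophic markers ura3-52 and trp1-289 and a leu2 allele, the deletions ade2-delta and ade3-delta, and lys1::kanMX4, and were grown to mid-log phase in the rich glucose medium YPD at 30°C. Each genotype is 1 strain and the labels do not name separate cultures, so the spread between libraries may be technical, and the ULP1 allele cannot be told apart from anything else that differs between the strains. Total counts ran from 13244131 to 26723470 per library. ULP1 itself had 74.4 and 66.8 CPM (counts per 1000000, with library size scaled for composition) in wild type against 79.7 and 74.4 in ulp1-I615N, which does not check a point mutation. LYS1 had 4 or 5 counts in each library, whereas ADE2 and ADE3, which the labels give as deleted, were counted at least 1368 times in each, so the libraries go against the labels there.

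A chromosome arm is not a pathway. Its genes encode unrelated proteins, each read from its own promoter, and share position on 1 DNA molecule. In yeast strains that carry an additional copy of a chromosome, transcripts of most of its genes are known to stand higher, spread along the whole chromosome. DNA copy number is not analysed here, and its part in the values below was not tested.

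Left arm members took 1.80% and 1.78% of all wild-type counts, against 2.80% and 2.81% with the ulp1-I615N allele. The libraries of each genotype therefore lay close together and the genotypes did not overlap. After a filter on low counts 179 members could be tested, and their median log2 fold change was 0.72, a median fold of 1.65, against a median of -0.01 over 5766 tested genes of the other chromosomes. The medians of the 33 genes left out of the set and of 157 tested right arm genes were 0.91 and 0.73. In the fit over all 6139 tested genes, 160 of the 179 members passed as higher (edgeR's quasi-likelihood F test, Benjamini-Hochberg adjusted p under 0.05) and 19 did not pass, beside 26.4% of all tested genes. Of the members 0 passed as lower, also at an unadjusted p under 0.05 and with DESeq2, beside 24.3% of all tested genes. Of the tested members, 169 had both mutant libraries above both wild-type libraries, beside 38.1% of all tested genes. For 1 tested member, PRY3, both mutant libraries lay below both wild-type libraries, beside 36.0%. Because this contrast chose the set, nothing is read from these counts.

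The 24 members that did not pass the filter had few or no counts. Of these, 21 overlap another annotated feature, 18 are not RefSeq genes, and 7 members were at 0 counts in every library. Among them are PAU1, a seripauperin cell wall family gene, with 1 count in 1 wild-type library and 0 in the others, and the isomaltase gene IMA4 with at most 2 counts. Where no fragment was counted, the level could still reach 0.214 CPM at the lowest depth and 0.108 CPM at the highest, taking 3 counts as the limit and counting error alone. This limit does not hold for repeated or overlapping genes, because the deposited counting left out multi-mapping fragments and those over more than 1 feature. PAU1 and IMA4 are 100% repeated elsewhere in the genome, and the 7 members at 0 counts all overlap another feature. Their low counts therefore do not show that these genes were silent.

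The ratio of mutant to wild type was not the same for all members. Of those tested, 79 lay between 1.5-fold and 2-fold, 48 lay at 2-fold or more and the rest lay under 1.5-fold. The interquartile range of the log2 fold changes was 0.51 for the members and 0.47 for genes of the other chromosomes. Over the 168 members with a mean of 50 counts or more, the median log2 ratio to the wild-type mean was 0.70 in mutant replicate 1 and 0.72 in mutant replicate 2. Between replicates, which the choice of the set did not use, the median log2 ratio was 0.0021 in wild type and -0.0049 in the mutant, with SDs over genes of 0.20 and 0.13.

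The members' median lay above that of the other chromosomes in each stretch of the arm. In steps of 50 kb from the centromere the median log2 fold change was 0.72 (16 genes), 0.85 (17), 0.76 (24), 0.77 (17), 0.74 (19), 0.75 (26), 0.73 (23), 0.52 (27) and, for the genes farthest out, 0.75 (10). The step from 350 to 400 kb thus had the lowest median. It holds the ribosomal protein genes RPS14B, RPS22A and RPL39 and the phosphate transporter gene PHO90, and without the genes of ribosomes, ribosome assembly and RNA processing its median was 0.58 over 22 genes. Across the 179 members the Spearman correlation of fold change with distance from the centromere was -0.17, given as a description since neighbouring genes share DNA. Genes read from the plus and the minus strand had medians of 0.71 and 0.72.

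**Figure D1:**
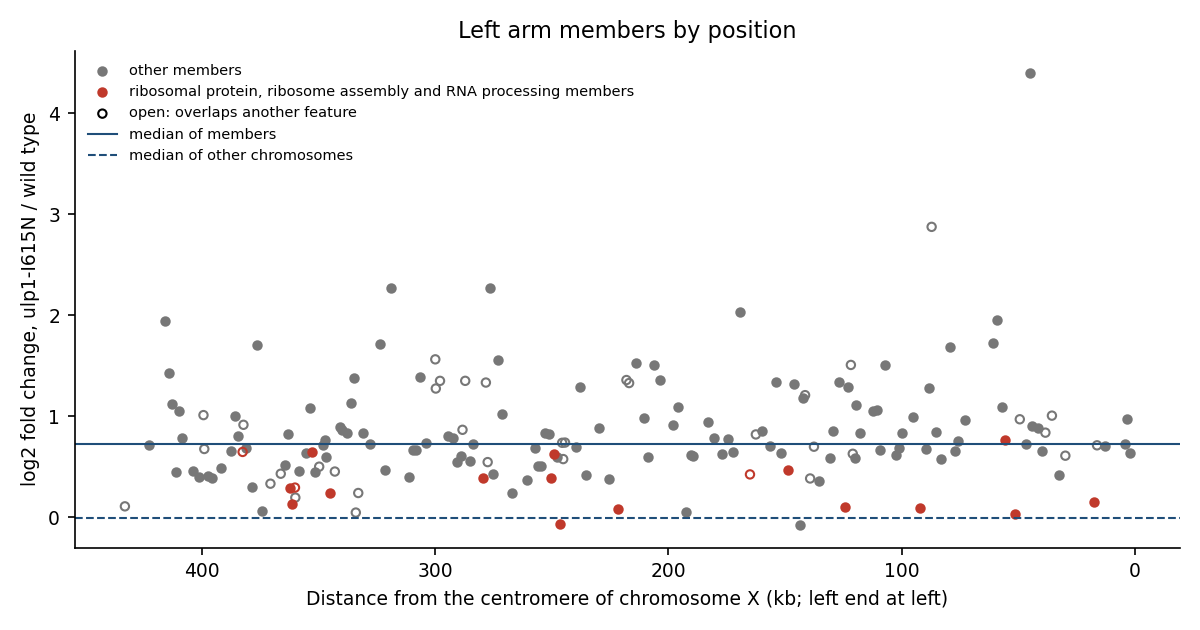
Log2 fold change of each tested left arm member (y axis, ulp1-I615N over wild type) against its distance from the centromere in kb (x axis); open points overlap another feature, the solid line is the members' median of 0.72 and the dashed line the median of -0.01 over other chromosomes. With composition scaling the points lie above the dashed line except PRY3 and ALB1, and with library totals only these 2 move to 0.05 and 0.07 while the median of other chromosomes moves to 0.12. Most of the red points, genes of ribosomes, ribosome assembly and RNA processing, lie low.

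At the chromosome end the counts are uncertain because the deposited counting left out multi-mapping fragments. Of the members, 13 had more than 10% of their 50-base stretches repeated elsewhere in the genome, among them all of the 9 features nearest the left end. YJL225C, at the very end and in many copies on other chromosomes, had 15.6 and 13.4 CPM in wild type against 16.9 and 14.5 in ulp1-I615N. The genotypes overlapped for it. VTH2, a gene of the vacuolar sorting receptor family of which 98.9% is repeated, had 7.26 and 4.90 CPM in wild type against 9.71 and 10.1 in ulp1-I615N, which did not overlap. HXT9, a hexose transporter family gene of which 61.9% is repeated, had 2.40 and 2.48 CPM in wild type against 8.93 and 9.79 in ulp1-I615N. Farther in, the Ty4 retrotransposon gene YJL113W (73.1% repeated) was at 12.3 and 9.92 CPM in wild type against 13.6 and 15.7 in ulp1-I615N. The genotypes overlapped for neither HXT9 nor YJL113W. VTH2 did not pass without wild type replicate 2, with a log2 fold change of 0.45 in place of 0.72. YJL113W, at 0.42, did not pass without wild type replicate 2 (0.26), without ulp1-I615N replicate 2 (0.30) or with DESeq2 (0.40).

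How far a member stood above wild type went with how strongly wild type expressed it. By quartiles of the wild-type level over all tested genes, the members' median log2 fold change was 1.01 in the lowest quartile (53 members, under 21.2 CPM), 0.79 in the second (51), 0.68 in the third (37) and 0.39 in the highest (38, above 126 CPM). Genes of the other chromosomes had medians of 0.20, 0.05, -0.04 and -0.23 in the same quartiles. Both sets thus declined with level, and the members' median exceeded that of the other chromosomes by 0.80, 0.73, 0.72 and 0.62. The Spearman correlation of fold change with wild-type level was -0.56 over the members and -0.41 over the other chromosomes. The wild-type level enters both axes of this relation, so it is given as a description. The lowest quartile also holds members that passed the filter only through their mutant counts. Examples are YJL028W, with 1 and 0 counts in wild type against 11 and 21 in ulp1-I615N, and YJL047C-A, with 2 and 2 against 11 and 28. The same filter served the genes of the other chromosomes.

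**Figure D2:**
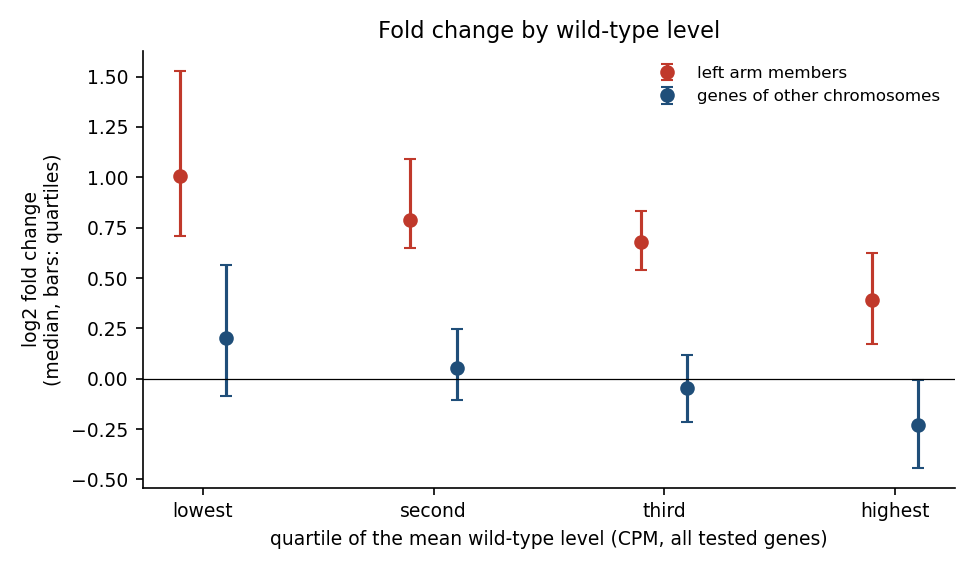
Median log2 fold change (y axis, bars from the lower to the upper quartile) of left arm members and of genes of other chromosomes, by quartile of the wild-type level in CPM (x axis). The members lie above the other genes in each quartile, from 1.01 against 0.20 in the lowest to 0.39 against -0.23 in the highest.

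Of the functional groups, ribosomal proteins and ribosome assembly with other RNA processing had the lowest medians. Cytosolic ribosomal proteins are the structural parts of the ribosome, and assembly factors fold and cut its RNA in the nucleolus. In yeast both kinds of gene are known to be read together, at high rates in fast growth and at low rates under stress. The 5 ribosomal protein members had a median log2 fold change of 0.29, with 3 passing as higher. The 13 members for ribosome assembly and other RNA processing had a median of 0.39, with 8 passing as higher and 5 not called. The shares passing as higher were 26.4% over all tested genes and 89.4% over the tested members. Members of any function in the highest quartile of wild-type level also had a median of 0.39. How far level enters the medians of these groups was not tested.

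Promoters of 3 assembly genes with small differences, and of 3 members with large ones, are shown as examples that hold a pair of short motifs. They were picked with the matches known, and UTP10 and MTR4, not shown, had smaller differences than UTP18 and 1 match each. The PAC motif, here GATGAG on either strand, is known from yeast genes of ribosome assembly, and the stress response element, here AGGGG on either strand, is the site known for the stress activators Msn2 and Msn4. Each window below covers 300 bases, from 350 to 51 bases before the annotated start codon, 5′ to 3′ on the strand of the gene, read from the RefSeq genome R64. Capitals mark these motifs, overlapping matches included. The windows of ALB1 and UTP18 each overlap 1 other annotated feature.
HCA4 (chrX:383487-383786, plus strand): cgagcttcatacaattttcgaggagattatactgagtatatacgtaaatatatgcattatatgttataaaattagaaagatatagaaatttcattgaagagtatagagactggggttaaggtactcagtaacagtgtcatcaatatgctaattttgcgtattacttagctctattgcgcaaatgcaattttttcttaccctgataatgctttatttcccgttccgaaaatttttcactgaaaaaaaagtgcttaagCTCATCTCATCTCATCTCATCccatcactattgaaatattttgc
ALB1 (chrX:189366-189665, plus strand): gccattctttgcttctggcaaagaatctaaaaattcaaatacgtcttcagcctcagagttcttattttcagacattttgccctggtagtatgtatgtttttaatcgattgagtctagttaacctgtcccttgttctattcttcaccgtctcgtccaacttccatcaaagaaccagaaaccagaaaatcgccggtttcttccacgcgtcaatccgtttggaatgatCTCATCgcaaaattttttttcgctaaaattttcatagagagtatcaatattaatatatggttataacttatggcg
UTP18 (chrX:312757-313056, minus strand): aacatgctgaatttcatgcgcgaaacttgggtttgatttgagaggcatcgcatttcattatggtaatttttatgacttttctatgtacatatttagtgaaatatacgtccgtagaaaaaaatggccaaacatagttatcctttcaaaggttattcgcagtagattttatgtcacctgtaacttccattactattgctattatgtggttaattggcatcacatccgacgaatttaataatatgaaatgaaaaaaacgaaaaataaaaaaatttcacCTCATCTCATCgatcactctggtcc
YAK1 (chrX:150441-150740, minus strand): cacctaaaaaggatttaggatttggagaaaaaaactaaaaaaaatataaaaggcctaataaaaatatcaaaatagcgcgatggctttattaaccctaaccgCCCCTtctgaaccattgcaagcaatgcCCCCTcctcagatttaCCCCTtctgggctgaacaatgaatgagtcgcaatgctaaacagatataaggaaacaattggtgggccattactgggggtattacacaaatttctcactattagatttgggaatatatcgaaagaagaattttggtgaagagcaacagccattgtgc
GSM1 (chrX:230932-231231, minus strand): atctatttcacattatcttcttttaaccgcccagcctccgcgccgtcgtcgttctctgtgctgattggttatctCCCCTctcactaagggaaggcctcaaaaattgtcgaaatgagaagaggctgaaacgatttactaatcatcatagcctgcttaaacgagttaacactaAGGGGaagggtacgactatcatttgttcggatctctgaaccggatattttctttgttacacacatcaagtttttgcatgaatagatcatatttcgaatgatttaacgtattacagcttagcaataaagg
DPI8 (chrX:159898-160197, minus strand): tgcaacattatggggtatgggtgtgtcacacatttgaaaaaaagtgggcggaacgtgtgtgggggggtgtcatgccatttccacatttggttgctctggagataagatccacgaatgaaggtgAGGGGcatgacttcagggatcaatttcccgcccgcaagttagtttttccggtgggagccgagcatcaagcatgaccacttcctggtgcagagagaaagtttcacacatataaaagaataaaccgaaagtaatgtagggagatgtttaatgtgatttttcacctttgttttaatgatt

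Over 5987 promoters of RefSeq protein genes, 19.8% held GATGAG and 22.9% held AGGGG, and over 174 member promoters 20.7% and 27.0% did. Of the 13 ribosome assembly and RNA processing members 8 held GATGAG, among them ALB1, HCA4, UTP10, MTR4, UTP18 and NOP9, and 1 held AGGGG. Among members with a mean of 50 counts or more, the 20 with the smallest log2 fold changes included 7 that held GATGAG and 2 that held AGGGG. The 20 with the largest included 1 with GATGAG and 9 with AGGGG, including YAK1 with 3 matches and GSM1, MEF2 and MPM1 with 2 each. A match is a description of letters in this window, not a binding site, and the motifs were chosen with the values known.

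Of the assembly genes, ALB1, which encodes a shuttling factor of the large subunit, was at 145 and 156 CPM in wild type against 138 and 149 in ulp1-I615N. HCA4, the gene of an RNA helicase of the small subunit processome, was at 253 and 251 CPM in wild type against 267 and 247 in ulp1-I615N. UTP10, a processome gene, was at 358 and 399 CPM in wild type against 397 and 405 in ulp1-I615N. The genotypes overlapped for each of these. UTP18, also of the processome, was at 175 and 177 CPM in wild type against 190 and 188 in ulp1-I615N, which did not overlap but differed by only 0.10 ± 0.06 on the log2 scale (SE). MTR4, the helicase gene of the nuclear exosome, had a log2 fold change of 0.08 and NOP9, an assembly factor gene, of 0.15. NOP9 passed, but not when any 1 of the 4 libraries was left out (0.11 to 0.19) nor with DESeq2 (0.14). The log2 fold change of ALB1 was -0.06 with composition scaling and 0.07 with library totals only. Those of UTP10 and MTR4 fell just below 0 without wild type replicate 1, and that of HCA4 (0.03) without ulp1-I615N replicate 1. With library totals only, HCA4, UTP10, MTR4 and UTP18 passed as higher, at 0.16 to 0.24, where the median of other chromosomes was 0.12. Other members of the list stood higher. Examples are GCD14 at 0.39, LSM1 of messenger RNA decay at 0.63, the splicing factor gene PRP21 at 0.64 and the transfer RNA deaminase gene TAD2 at 0.76. PRP21 overlaps another feature. Of these examples only TAD2 lay above the median of 0.72 over all tested members.

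Ribosomal protein and processome genes off chromosome X lay below 0. The 16 other tested genes with UTP symbols had a median log2 fold change of -0.51, and all 16 passed as lower, while UTP10 and UTP18 had a median of 0.09. For 124 ribosomal protein genes on other chromosomes the median was -0.45, and 115 passed as lower. Of all tested genes 24.3% passed as lower. The members thus stood above their relatives elsewhere by 0.61 for the UTP genes and by 0.74 for the ribosomal protein genes. Among mitochondrial ribosomal protein genes the median was 0.60 for MRPL8 and MRPL49 and 0.01 for 41 genes elsewhere, a gap of 0.58. Genes with VPS symbols differed by 0.63 (medians 0.72 and 0.09), those with TIM symbols by 0.88 (0.65 and -0.24), those with HXT symbols by 0.92 (1.36 and 0.45) and those with ATG symbols by 0.45 (0.84 and 0.39). The members' median was the higher one in each of these families, which have 2 to 5 tested members. The families were taken after their values were seen and this contrast chose the members. The gaps are therefore a description, and their cause was not tested.

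Duplicated genes can be described in the same way, because 1 copy lies on the arm and the other elsewhere. RPS21B, a small subunit protein gene, was at 1054 and 1125 CPM in wild type against 1287 and 1565 in ulp1-I615N, while its copy RPS21A on chromosome XI was at 665 and 770.5 in wild type against 412 and 519 in ulp1-I615N. RPS22A was at 1581 and 1755 CPM in wild type against 1657 and 1992 in ulp1-I615N, which overlapped, while RPS22B on chromosome XII was at 222 and 233 in wild type against 72.5 and 88.8 in ulp1-I615N. RPL17B, of the large subunit, was at 1138 and 1296 CPM in wild type against 1384 and 1485 in ulp1-I615N, while RPL17A on chromosome XI was at 1429 and 1640 in wild type against 1062 and 1275 in ulp1-I615N. In each pair the copy elsewhere passed as lower, and the copy on the arm passed as higher except RPS22A, which went just below 0 without ulp1-I615N replicate 2 and passed at 0.26 with library totals only. RPL17B did not pass without wild type replicate 1 (0.13) or ulp1-I615N replicate 2 (0.18), nor RPS21B without ulp1-I615N replicate 2 (0.24). RPS14B at 0.29 and RPS14A on chromosome III at -0.43 passed as higher and lower (log2 fold changes), with 12% of RPS14B repeated in the genome and so not countable in full. RPL39 overlaps another feature and kept only 87 and 89 counts in wild type, so its value of 0.29 is uncertain.

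Over 19 member and paralog pairs the member had the larger log2 fold change in 17, and the median difference was 0.64. Members had a median of 0.43 and paralogs of 0.01. Of the paralogs 5 passed as higher and 7 as lower, beside 26.4% and 24.3% of all tested genes, and 7 were not called. The pairs were listed with earlier results known and this contrast chose the members, so these counts are a description. Examples outside the ribosome are the potassium transporter genes TRK1 at 0.36 and TRK2 at -0.33, and the arrestin-related genes ALY2 at 0.85 and ALY1 at 0.20. HAL5 and KKQ8, both kinase genes, were at 0.73 and 0.08. The succinate dehydrogenase subunit genes were at 1.68 for SDH9 and 0.86 for SDH1. Of the exceptions, 1 was the GATA factor pair, with GZF3 at 0.37 and DAL80 at 1.96, where DAL80 was at most at 1.26 CPM and overlaps another feature.

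The protein complexes listed here showed a step between the subunit gene on the arm and its partners. In 13 complexes the 15 member genes had a median log2 fold change of 0.64, and 42 tested partner genes on other chromosomes had a median of -0.08. Of these partners 1 passed as higher and 9 as lower, beside 26.4% and 24.3% of all tested genes, and 32 were not called. In all 13 the member lay above each tested partner. This contrast chose the members, and the complexes were listed with earlier results known and without every partner. The step is therefore a description. VPS35 and PEP8, which encode cargo-binding subunits of the retromer that returns proteins from endosomes, were at 0.73 and 0.83, and VPS29, VPS5 and VPS17 at 0.09, 0.18 and 0.04. TIM17 and PAM16 of the mitochondrial inner membrane import machine were at 0.61 and 0.60, whereas TIM23, TIM50, TIM44 and PAM18 were at -0.26, -0.28, -0.24 and -0.48. In replication protein A, the single-stranded DNA binder, RFA3 was at 0.87 and RFA1 and RFA2 at 0.14 and 0.22. RPB4 and RPB7, which form the stalk of RNA polymerase II, were at 0.55 and -0.36. The smallest step was in the oligosaccharyltransferase that attaches sugar chains in the endoplasmic reticulum, with OST1 at 0.64 and OST2, a gene of few counts that overlaps another feature, at 0.45. Its other 4 tested partners lay between -0.15 and -0.01.

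**Figure D3:**
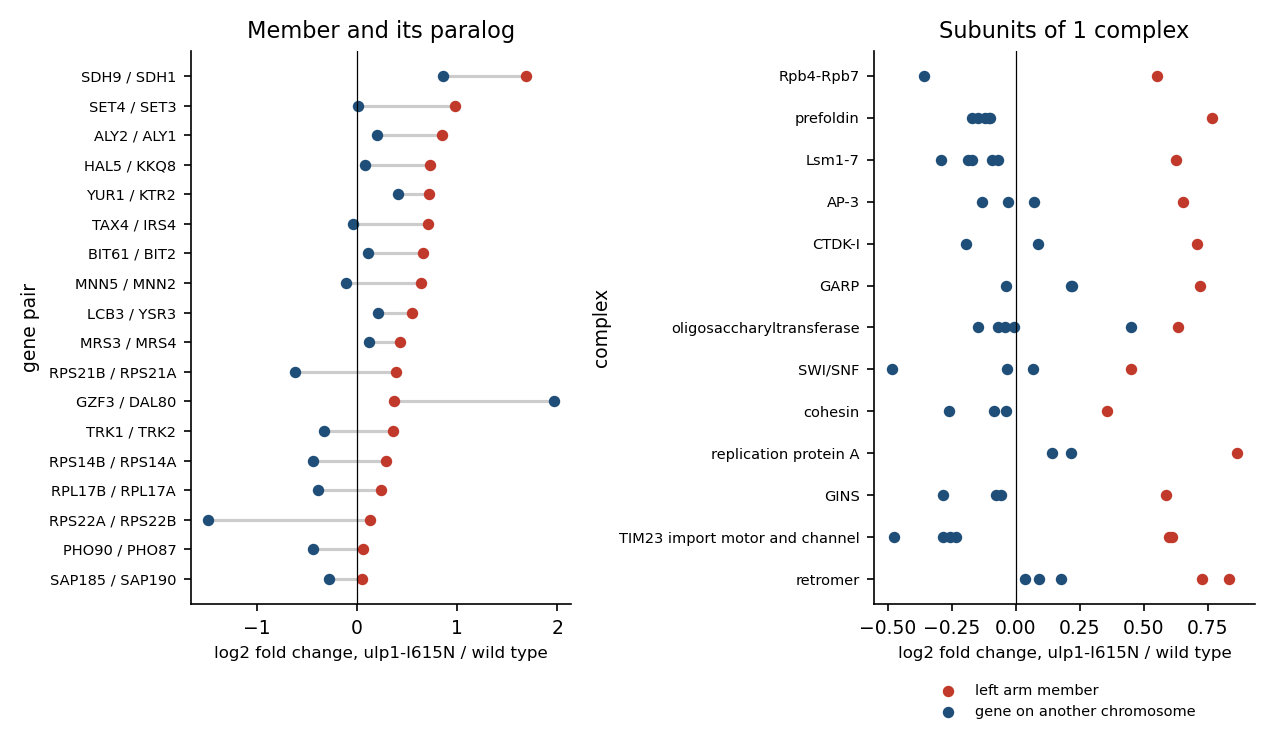
Log2 fold changes (x axis, ulp1-I615N over wild type) of left arm members in red and of related genes on other chromosomes in blue, for the paralog pairs, 1 of the 19 not drawn (left panel), and the subunits of 13 complexes (right panel). Red lies to the right of blue in each pair drawn except GZF3 and DAL80, and in each complex.

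Genes of the secretory route varied little among themselves, with interquartile ranges of 0.18 for the endoplasmic reticulum group and 0.16 for the endosome group against 0.51 for all tested members. The other functional groups ran from 0.05 for cytosolic ribosomal proteins and 0.27 for DNA replication and repair to 0.89 for kinases and cell cycle regulators. The 14 genes for the endoplasmic reticulum, glycosylation and secretion had a median of 0.75 and ran from 0.45 for the mannosyltransferase gene MNN11 to 1.09 for CHS6, which helps carry a chitin synthase to the cell surface. The 13 genes for endosome, vacuole and autophagy had a median of 0.73 and ran from 0.49 for LAA1, a partner of a clathrin adaptor, to 1.27 for the vacuolar sorting gene SNA3, which overlaps another feature. All genes of both groups passed as higher, beside 26.4% of all tested genes, from the contrast that chose them. SNX4, a sorting nexin gene, was at 47.9 and 46.8 CPM in wild type against 100 and 101 in ulp1-I615N. Its libraries of 1 genotype thus nearly coincided.

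The genes of nuclear functions included both low and high members. The 8 genes for DNA replication and repair had a median of 0.61, from the cohesin gene SMC3 at 0.36 to RFA3 at 0.87. The 14 genes for transcription and chromatin had a median of 0.67 and ran from the histone methyltransferase gene SET2 at 0.24, which overlaps another feature, to SIP4 at 2.03. SET2 did not pass without ulp1-I615N replicate 1 (0.18). SIP4, which encodes an activator of gluconeogenesis genes, was at 7.39 and 6.33 CPM in wild type against 31.8 and 24.5 in ulp1-I615N. GSM1, a gene of a zinc cluster protein, was at 15.1 and 12.9 CPM in wild type against 43.9 and 36.3 in ulp1-I615N. Neither gene's genotypes overlapped.

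Kinase and cell cycle genes were spread widely. The 9 members had a median of 0.69. SAP185, which encodes a partner of the phosphatase Sit4, was at 165 and 167 CPM in wild type against 172 and 172 in ulp1-I615N, a log2 fold change of 0.05 that did not pass although the libraries did not overlap, and that passed at 0.18 with library totals only. FAR1, the cyclin-dependent kinase inhibitor of the mating response, was at 0.40 and SWE1, the kinase gene of the morphogenesis checkpoint, at 0.46. The stress kinase gene PBS2 was at 0.69. YAK1, which encodes a kinase that slows growth in parallel to protein kinase A, was at 47.8 and 52.1 CPM in wild type against 130 and 125 in ulp1-I615N, and IME2, the meiotic kinase gene, at 7.79 and 8.10 in wild type against 23.8 and 22.3 in ulp1-I615N. YAK1 overlaps another feature, and in neither gene did the genotypes overlap.

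Mitochondrial, metabolic and transporter genes spanned a wide range. The 19 mitochondrial members had a median of 0.69, all 19 passing as higher, beside 26.4% of all tested genes, again from the contrast that chose them. FMP33, a gene of a mitochondrial protein of unknown role, was at 2.60 and 3.97 CPM in wild type against 17.0 and 15.2 in ulp1-I615N. The genotypes did not overlap for it. Of 10 tested metabolic genes, with a median of 0.83, ERG20 of isoprenoid and sterol synthesis was at 810 and 796 CPM in wild type against 1428 and 1440 in ulp1-I615N. The pyrimidine gene URA2 was at 0.24 ± 0.08 (SE) and FBP26, the fructose-2,6-bisphosphatase gene, at 1.39 ± 0.08. URA2 did not pass without wild type replicate 1 (0.17) or ulp1-I615N replicate 2 (0.23). Among 7 transporter genes, with a median of 0.78, the low-affinity phosphate transporter gene PHO90 was at 191 and 194 CPM in wild type against 197 and 204 in ulp1-I615N. It stood at 0.06, and passed at 0.19 with library totals only, while the potassium channel gene TOK1 and the transporter gene KHA1 stood at 0.78 and 0.94.

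**Figure D4:**
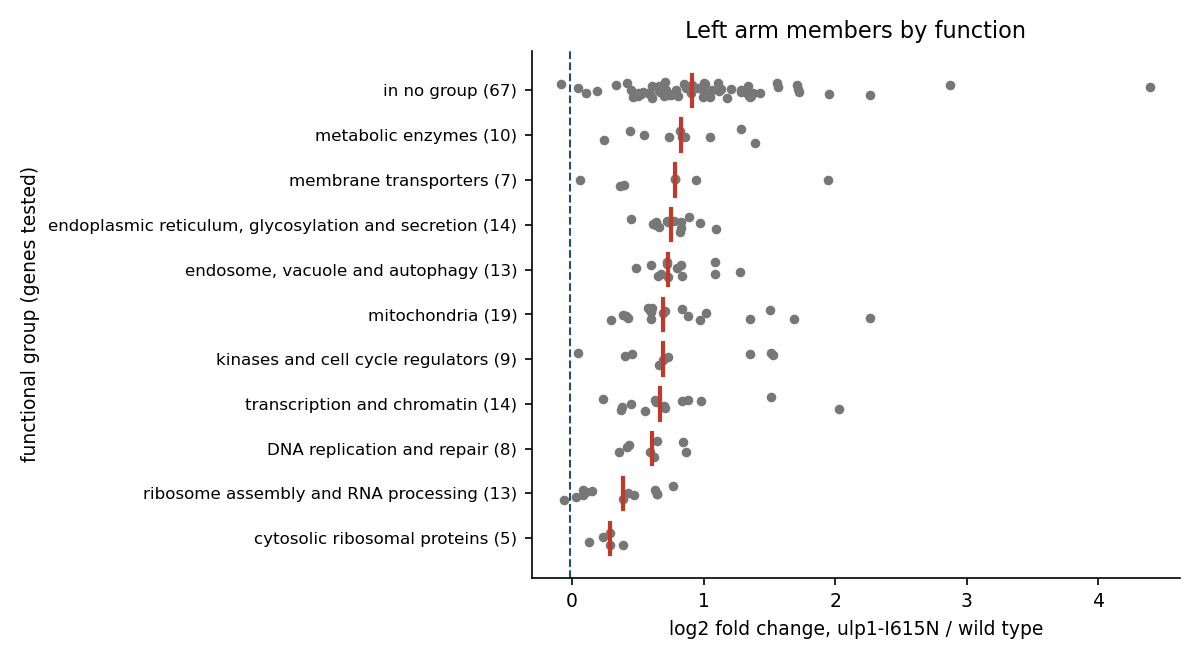
Log2 fold change (x axis, ulp1-I615N over wild type) of each tested left arm member by functional group (y axis, number of genes in brackets), with the group median as a red bar and the median of other chromosomes as a dashed line. Ribosomal protein genes and the group of ribosome assembly and RNA processing have the lowest medians, 0.29 and 0.39.

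Neighbouring genes could differ widely. PRY3 and PRY1 lie side by side on the minus strand and encode related secreted sterol-binding proteins. PRY3 (chrX:291336-293981) was at 414 and 430 CPM in wild type against 387 and 411 in ulp1-I615N. PRY1 (chrX:289875-290774) was at 106 and 81.9 CPM in wild type against 220 and 245 in ulp1-I615N. PRY1 did not overlap between genotypes and had a log2 fold change of 1.32, against -0.08 for PRY3, the lowest of the tested members, which became 0.05 with library totals only. Elsewhere neighbours were alike: LOH1 and IRC18, next to each other and read in opposite directions, had log2 fold changes of 1.72 and 1.95. A run from PRM10 over YJL107C and IME2 to SET4, PAM16, GSM1 and MEF2 held values of 1.36, 1.33, 1.53, 0.98, 0.60, 1.51 and 1.36, next to UTP10 at 0.08. PRM10 and YJL107C overlap each other.

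Several other large differences belonged to weakly expressed genes. DPI8 was at 11.8 and 9.25 CPM in wild type against 44.0 and 55.8 in ulp1-I615N, a log2 fold change of 2.27 ± 0.14 (SE). MBB1 was at 3.46 and 3.31 CPM in wild type against 10.2 and 11.7 in ulp1-I615N, and YJL163C at 13.1 and 13.3 in wild type against 46.6 and 40.7 in ulp1-I615N. In each the genotypes were well apart. Large differences also occurred at higher levels, such as a log2 fold change of 1.34 for IML2 from 70.7 and 60.5 CPM in wild type. The largest fitted value, that of YJL028W, rested on 1 and 0 counts in wild type against 11 and 21 in ulp1-I615N and gives no usable fold. Of the 67 tested members in none of the functional groups the median was 0.91.

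**Figure D5:**
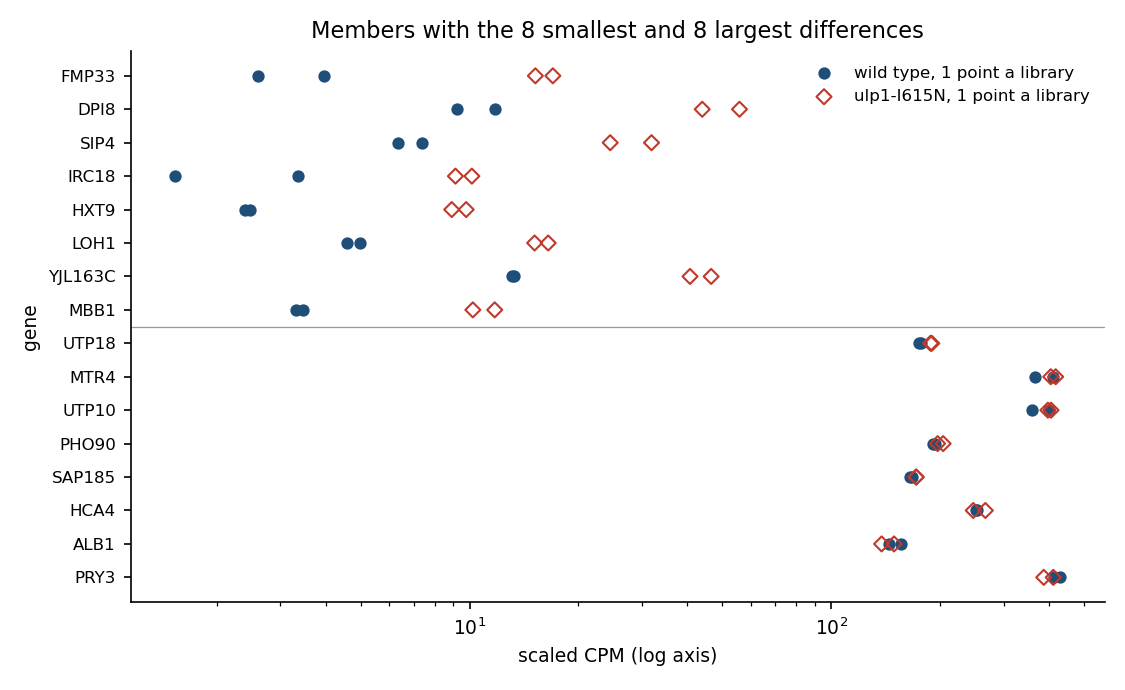
Scaled CPM (x axis, log scale) in each library for the members with a mean of 50 counts or more that had the 8 largest (upper rows) and the 8 smallest (lower rows) log2 fold changes; filled circles are wild type, open diamonds ulp1-I615N. In the upper rows the genotypes are apart at low levels, such as SIP4 at 6.33 to 7.39 against 24.5 to 31.8, and in the lower rows they lie close together at levels above 100 CPM.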

How the data were processed

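Per the file headers, the authors counted read pairs over genes with featureCounts 2.0.0, and the deposited values are raw counts, obtained without the options for strand, multi-mapping or overlapping features. Overlapping, antisense and repeated genes are therefore uncertain. Per the submitters' processing notes, the build was sacCer3, with HISAT2 2.1.0 and Subread 2.0.0. Of 7126 features 6048 matched RefSeq R64 by locus tag, 6036 with the same start and end, and RefSeq gave symbols and promoter sequence. Columns were tied to libraries by the library names in the labels.

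Genes were filtered with edgeR's defaults (minimum count 10, minimum total 15), scaled with TMM and fitted with the quasi-likelihood test of edgeR 4.0.16 (robust) in R 4.3.3, mutant against wild type, with Benjamini-Hochberg adjustment over 6139 genes; SEs came from the F statistics. CPM use the TMM-scaled library sizes. On simulated data for this comparison over 6139 genes the test recovered 34% of genes at the smallest difference set, which was under 1.5-fold. It recovered 88% at 1.5-fold and 100% at 2-fold, with 5 false calls. These percentages do not carry over to members of few counts. YJL135W at 2.52-fold and YJL114W at 2.44-fold, each with at most 20 counts in any library, were not called. Total counts of 13244131 to 26723470 set the precision.

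Members and lists were chosen with earlier results of these data known. The rule for named genes took 60 members, of which the text names a part: the 8 largest and 8 smallest log2 fold changes among members with a mean of 50 counts or more, the extremes of each of 10 functional groups, members with a listed paralog or complex partner, and members within 20 kb of the left end; other genes named, and the families taken by symbol, were chosen after their values were seen. Alternatives were DESeq2 size factors, library totals, TMM without chromosome X, other filters, DESeq2 1.42.0, a replicate block, leaving out overlapping features and leaving out each library; RefSeq genes only was added after seeing the data. The values of 1 member and its paralog are not reported here by name, but are in the counts and medians, where that pair is the other exception.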

Additional observations from a re-analysis of the deposited data

How the results depend on the processing

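The number of members passing as higher was 160 and stayed between 147 and 169 in every alternative on all members, with 0 lower, while the share of all tested genes passing as higher, 26.4%, went from 21.3% with the DESeq2 test to 36.1% with library totals, the setting that gave 169; without features that overlap another it was 129 of 141, and with RefSeq genes only 154 of 168. Scaling by library totals alone raised the all-gene median by 0.13 and the members' median to 0.85; with TMM factors computed without chromosome X it was 0.75. The members' median minus that of other chromosomes stayed between 0.72 and 0.75 in all settings fitted. Leaving out 1 library gave 147 to 157 members higher and medians of 0.70 to 0.73, the lone library of a group being assumed to vary like the other group. With the replicate block 162 members passed as higher with a median of 0.72. Samples of the same number also share a letter, A or B, in their library names. The labels do not say what the letter stands for, and the correlation of their deviations was 0.08, so the block is given here only. Among 60 named members, PRY3 (0.0506) and ALB1 (0.0675) changed sign with library totals, MTR4 (-0.0106) and UTP10 (-0.0075, up to 0.164 over the libraries left out) without wild type replicate 1, YJL225C (-0.0024) without wild type replicate 2, HCA4 (-0.0278, up to 0.0833 over the libraries left out) without ulp1-I615N replicate 1 and RPS22A (-0.0098, up to 0.256 over the libraries left out) without ulp1-I615N replicate 2. None of these passed in the analysis reported, and the cause was not tested. Library totals added calls for 9 members, among them HCA4 (0.160), UTP10 (0.217), MTR4 (0.218), UTP18 (0.236), SAP185 (0.179), PHO90 (0.192) and RPS22A (0.262), and the replicate block for 2, with RPS22A at 0.125. Of the members that passed, 17 did not pass in at least 1 fit without a library: 6 without wild type replicate 1, 5 without wild type replicate 2, 4 without ulp1-I615N replicate 1 and 13 without ulp1-I615N replicate 2. Among those described, NOP9 did not pass in any of these fits (0.11 to 0.19), YJL113W not without wild type replicate 2 (0.26) or ulp1-I615N replicate 2 (0.30), URA2 and RPL17B did not pass without wild type replicate 1 (0.17 and 0.13) or without ulp1-I615N replicate 2 (0.23 and 0.18), RPS21B not without ulp1-I615N replicate 2 (0.24), SET2 not without ulp1-I615N replicate 1 (0.18) and VTH2 not without wild type replicate 2 (0.45). At these depths members of a few CPM have wide errors.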
